A study of Homo sapiens with 17 samples.

Results

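Editing by RPS2-STAMP above Control-STAMP was described for transcripts recovered with PABPC, the cytoplasmic poly(A)-binding protein. The genes described were those with an average TPM, a measure of transcript abundance, of at least 5 in the PABPC IP, which left 10578 of the 18869 genes in the table. All samples came from HEK293T, a human cell line of embryonic kidney origin, in stable lines made by lentiviral integration of a construct that was switched on with 50 ng/mL doxycycline for 24 h. RPS2-STAMP cells expressed APOBEC1, an enzyme that deaminates C to U in RNA, fused to the small ribosomal subunit protein RPS2, and Control-STAMP cells expressed APOBEC1 alone. Both lines were crosslinked with formaldehyde, in an experiment that the paper places in the cytoplasm though no fractionation stands in the labels. Both have samples of an Input, a PABPC IP and a PABPN IP. The PABPC IP comprised 3 RPS2-STAMP and 2 Control-STAMP samples of the 17 in the series. Each gene has 1 normalized EPKM for each fraction, pooled over replicates, so no SD or p-value stands beside them, and a difference between genes has no replicate check.

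EPKM counts C-to-U edits per kilobase of transcript, scaled to the number of mapped reads, and the normalized EPKM has the editing of the control condition subtracted. In Ribo-STAMP the edits are laid down where RPS2, carried in the 40S subunit, comes close to an RNA during scanning or elongation, and edits accumulate on a molecule while the construct is expressed. PABPC coats the poly(A) tails of cytoplasmic mRNAs, binds the initiation factor eIF4G at the cap and is known for its part in translation and mRNA stability. An EPKM is not divided by the abundance of the transcript, so it was read both as an absolute value and against genes of like abundance. For the latter, each gene was set beside the 200 genes nearest to it in PABPC IP TPM. Their median EPKM is called the expected value here, and the position of the gene among them is given as a percentile. The most abundant genes have too few genes above them. All were set against the 200 genes of highest TPM, with a median of 1243 TPM. A gene at or above 2 times its expected value is called high for its TPM, and one at or below 0.5 times is called low.

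Editing above Control-STAMP was listed for most transcripts bound by PABPC. A total of 8555 genes (80.9%) had a normalized EPKM above 0 and 2023 were listed at 0. The 95% Wilson interval over genes, 80.1 to 81.6%, leaves out replicate error and the choice of TPM limit. The median was 0.0477 EPKM, with quartiles of 0.0104 and 0.0981. The upper tail was long, since the 90th percentile was 0.161, 84 genes were at or above 0.5, 14 genes were at or above 1 and the highest gene reached 1.95. The 9696 protein-coding genes had a median of 0.0496 EPKM, and 17.6% of them were listed at 0. The 510 lncRNAs had a median of 0.0203 EPKM, and 35.1% were listed at 0. The files hold no counts of reads or edits, so the depth behind each value is unknown, and a value of 0 cannot be read as an absence of editing. The values are averages over cultures, in which fewer cells holding an RNA and less of it per cell cannot be told apart. Of 7 genes set as HEK293T markers, 6 had a TPM of at least 5 in the PABPC IP and PAX2 had 1.28. Of 6 markers of other tissues, 1 was listed, APOA1 at 0.629 TPM.

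EPKM was higher for more abundant transcripts, but by less than the abundance itself. From the lowest to the highest decile of genes by PABPC IP TPM, the median TPM differed 48.2-fold, from 6.05 to 291.5, and the median EPKM differed 7.62-fold, from 0.0172 to 0.131. The median EPKM per 1000 TPM was accordingly lower in the highest decile, at 0.359, than in the lowest, at 2.89. The share of genes listed at 0 was 27.1% in the lowest decile and 11.9% in the highest. At the limit of 5 TPM there was no visible step. The 100 genes just below it (4.82 to 5.00 TPM) had a median of 0.0139 EPKM and 34% at 0, and the 100 genes just above it (5.00 to 5.17 TPM) had a median of 0.0127 EPKM and 29% at 0.

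**Figure D1:**
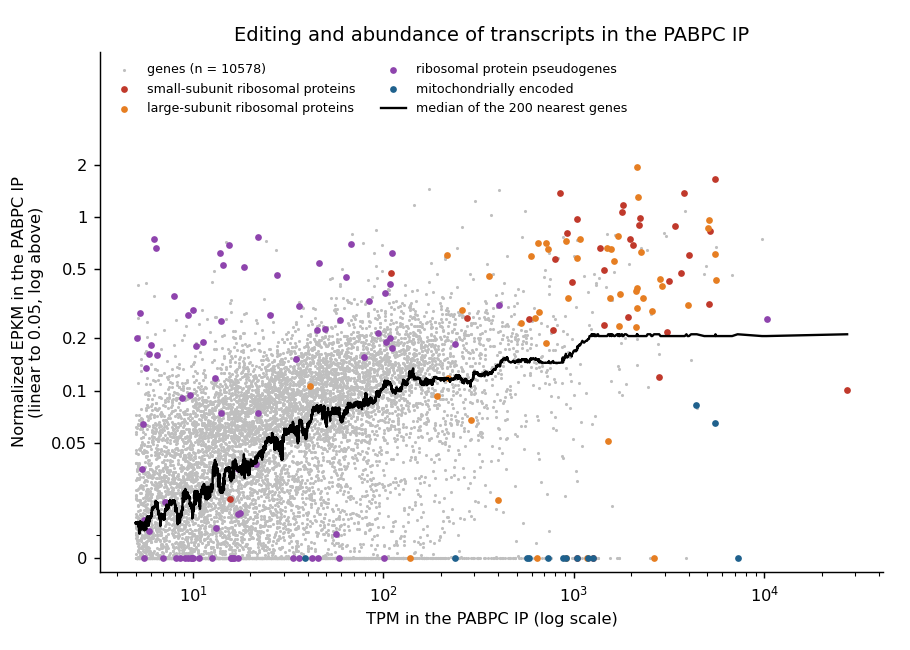
Normalized EPKM in the PABPC IP (linear to 0.05, log scale above) against TPM in the PABPC IP (log scale) for 10578 genes in grey, with 4 gene families in colour and the median of the 200 nearest genes as a black line. Ribosomal protein mRNAs lie mostly above the line at high TPM, their processed pseudogenes are spread from well above it to 0, and 11 of 13 mitochondrially encoded mRNAs lie at 0.

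The transcripts with the highest editing in the PABPC IP were led by ribosomal protein mRNAs. RPL12, a protein of the large ribosomal subunit (ENSG00000197958, chromosome 9 of hg38 from 127447674 to 127451406), had 1.95 EPKM at 2142 TPM, 9.46 times its expected value of 0.206. RPSA, a small-subunit protein that is also known as the laminin receptor (chromosome 3 from 39406716 to 39426255), had 1.65 EPKM at 5493 TPM, 8.02 times its expected value. RPS15A had 1.38 EPKM, RPLP1 of the ribosomal stalk 1.32, RPS27 1.18 and RPS10 1.07. Of the 15 genes with the highest EPKM, 8 encode ribosomal proteins, 5 encode other proteins and 2 are processed pseudogenes.

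The other 5 protein-coding genes of that list differed in what the other fractions showed. ACTB, which encodes cytoplasmic beta-actin, had 1.09 EPKM in the PABPC IP, 0.889 in the Input and 0.661 in the PABPN IP. MRPL14, a protein of the mitochondrial ribosome, had 1.45 EPKM in the PABPC IP at 406 TPM and 0 in both other fractions. TMEM14C, a mitochondrial inner membrane protein needed for heme synthesis, had 1.25 EPKM with PABPC, none listed in the Input and 0.0635 with PABPN. RNASEK, ribonuclease kappa, also a component of the vacuolar proton pump, had 1.08 EPKM with PABPC and 0.694 with PABPN, and its Input value was 0. NDUFA7, a subunit of respiratory complex I, had 1.04 EPKM with PABPC and 0.155 with PABPN, and its Input value was 0 as well.

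The Input thus divided this list. RPL12 had 2.24 EPKM there, RPSA 1.75, RPLP1 1.32, RPS15A 1.15 and RPS27 0.802. Of the 15 genes, 7 were listed at 0 in the Input, and RPS10 was among these. Over all 10578 genes the median was 0.0251 EPKM in the Input and 0.0325 in the PABPN IP. The share of all genes at 0 was not counted in those fractions, so counts at 0 there have no background. For 5 of the 15 genes, among them GPX1P1, RNASEK, RPS10 and NDUFA7, other annotated genes on either strand cover at least 95% of the span. The span runs from gene start to gene end, so this overlap need not lie in exons. The part of gene overlap in these values was not tested.

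Cytosolic ribosomal proteins had a median of 0.497 EPKM over the 33 genes of the small subunit and 0.360 over the 49 of the large subunit, against 0.0477 over all 10578 genes. Among the 84 genes at or above 0.5 EPKM, 34 were ribosomal protein mRNAs. These mRNAs are also among the most abundant in the cell, and within the 200 genes of highest TPM the 63 ribosomal protein mRNAs had a median of 0.497 EPKM where the other 137 genes had 0.133. Of the 33 small-subunit mRNAs, 22 were high for their TPM and 3 were low, and of the 49 large-subunit mRNAs, 23 were high and 7 were low. Over all 10578 genes, 2023 (19.1%) were high, 3423 (32.4%) were low and 2023 (19.1%) were listed at 0. Because the expected value at this abundance is itself set partly by ribosomal protein mRNAs, the comparison was repeated with each subunit's own members left out, and 23 small-subunit and 31 large-subunit mRNAs were then high. The median percentile was 85 for the small subunit (interval over members 70 to 94) and 73.5 for the large subunit (63.5 to 83.5).

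The place of these mRNAs depended on how abundance was taken into account. Where EPKM was divided by TPM and ranked over all genes, the median percentile was 27.4 for the small subunit and 25.1 for the large, below the middle of the ranking. Other families, such as elongation factors and histones, also crossed the middle on this scale. In these data EPKM per TPM was 8.06-fold lower in the highest decile of genes by TPM than in the lowest.

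Ribosomal protein mRNAs are known for a start site that opens with a C followed by a run of pyrimidines, the TOP motif, through which their translation is coupled to growth signals. The sequence around the start was therefore read for ribosomal protein genes, from RefSeq promoter windows on GRCh38.p14. The letters CTTT were searched on the sense strand from 5 bases before to 10 bases after the annotated start, a choice made after the values had been seen. They were found for 36 of the 65 ribosomal protein genes with a window (55.4%) and for 1809 of all 27305 windows (6.63%). Shown first are 4 of the ribosomal protein mRNAs with the highest EPKM, then 4 that are listed at 0, each from 10 bases before to 20 bases after the start, with CTTT in capitals where it lies within the searched bases.
RPSA (+, chr3:39406710-39406739): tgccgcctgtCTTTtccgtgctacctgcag
RPLP1 (+, chr15:69452808-69452837): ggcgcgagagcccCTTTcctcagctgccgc
RPS27 (+, chr1:153990752-153990781): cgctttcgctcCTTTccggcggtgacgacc
RPS10 (−, chr6:34426050-34426079): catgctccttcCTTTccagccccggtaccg
RPS23 (−, chr5:82278335-82278364): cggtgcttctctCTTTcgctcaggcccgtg
RPL41 (+, chr12:56116623-56116652): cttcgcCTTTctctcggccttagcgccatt
FAU (−, chr11:65122115-65122144): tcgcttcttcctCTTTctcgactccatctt
RPL32 (−, chr3:12841546-12841575): acgacccatcagcccttgcgcgccaccgtc
The genes with CTTT were chosen to show that it stands near the start both in mRNAs with high EPKM and in mRNAs listed at 0, and RPL32 is listed at 0 without it. RPL12, the gene with the highest EPKM, has no CTTT within the searched bases, though the letters occur farther into the stretch shown:
RPL12 (−, chr9:127451387-127451416): cgatttccggcctctcggctttcggctcgg

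Over the ribosomal protein genes with a window, those with CTTT had a median of 0.448 EPKM (36 genes, 4 at 0) and those without it had 0.312 (29 genes, 2 at 0). The quartiles overlapped, from 0.238 to 0.757 with CTTT and from 0.244 to 0.580 without. The median percentile among genes of like TPM was 80.8 with CTTT, with 61.1% high, and 71 without, with 41.4% high. Over all genes, 19.1% were high. Among the other protein-coding genes, 473 with CTTT had a median of 0.0540 EPKM and a median percentile of 50, and 7416 without had 0.0486 and 49.5. High for their TPM were 18.4% of the former and 17.2% of the latter. A match to these letters is a description of the window and not evidence of a functional motif.

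The ribosomal protein mRNAs were far from uniform. In the large subunit, EPKM ran from 1.95 for RPL12 through 1.32 for RPLP1, 0.967 for RPL8 and 0.863 for RPL7A to 5 mRNAs listed at 0. Among these were RPL32 at 2633 TPM, RPL41 at 1169 TPM, RPL17 at 906 TPM and RPL36AL at 138.4 TPM. In the small subunit the 2 mRNAs listed at 0 were RPS23 at 1261 TPM and FAU, which encodes a ubiquitin-like protein fused to a small-subunit protein, at 1040 TPM. Of these 7 mRNAs, 6 were above 0 in the Input, from 0.00466 EPKM for RPL32 to 0.422 for RPL41, and RPL36AL was listed at 0 there too. RPL17 shares exons with the readthrough gene RPL17-C18orf32, which had 0.193 EPKM in the PABPC IP. Across both subunits the values thus ran from 0 to 1.95 EPKM.

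**Figure D2:**
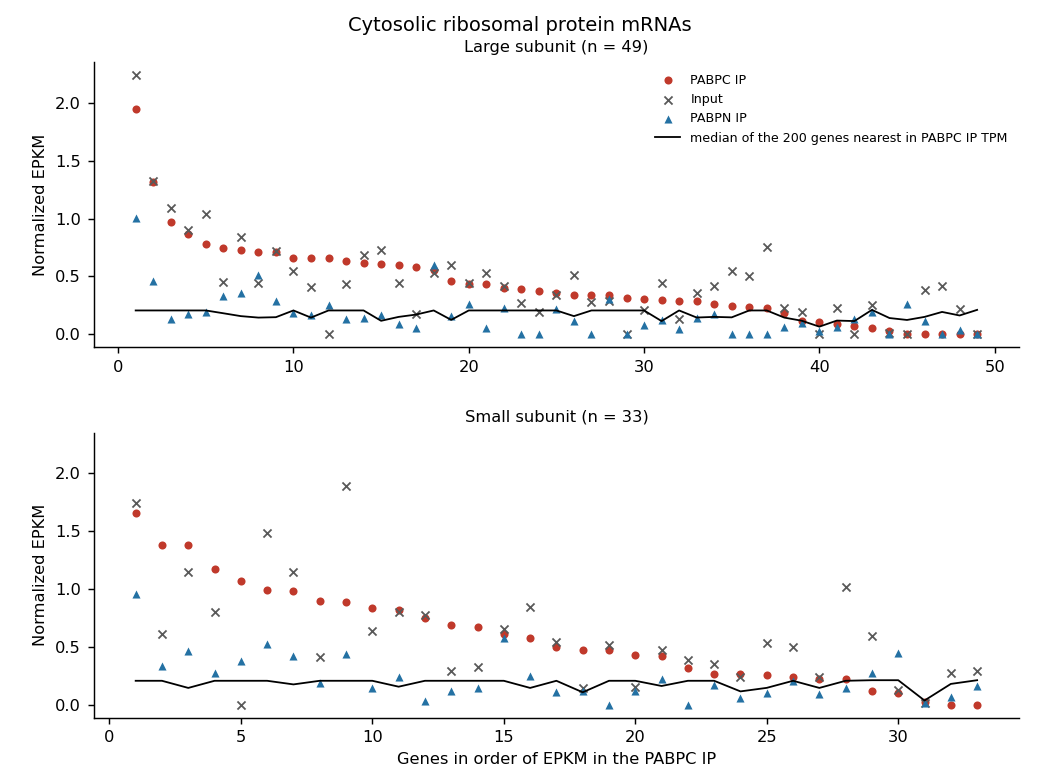
Normalized EPKM of 49 large-subunit and 33 small-subunit ribosomal protein mRNAs, in order of their EPKM in the PABPC IP (red), with the Input (grey crosses), the PABPN IP (blue triangles) and the expected value for their PABPC IP TPM (black line). Most red points lie above the line in both panels, and 7 of the 82 mRNAs are at 0.

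RPS2 had the highest TPM of the table in the PABPC IP, 27182, and 0.101 EPKM, 0.476 times its expected value. That value was set by the 200 genes of highest TPM, whose median was 1243 TPM. The RPS2-STAMP construct itself carries RPS2 sequence, and reads from it and from the endogenous gene cannot be told apart in these values. RPS2P5, a processed pseudogene of RPS2, was listed at 10262 TPM and 0.258 EPKM, and the other 3 RPS2 pseudogenes at or above 5 TPM had 0.273 (RPS2P17), 0.216 (RPS2P55) and 0 (RPS2P7).

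Processed pseudogenes are copies of spliced mRNAs put back into the genome, and those of ribosomal proteins resemble their parent mRNAs closely, so the assignment of reads and edits between copy and parent is uncertain. Of 270 ribosomal protein pseudogenes in the table, 79 reached 5 TPM, and these had a median of 0.151 EPKM at a median TPM of 15.8, against an expected value of 0.0385. Of these, 41 (51.9%) were high for their TPM, against 19.1% of all genes, and 25 (31.6%) were low, near the 32.4% of all genes, with 22 at 0 and 13 between. The median percentile was 86.5 (interval over members 55.5 to 97.5). All 167 processed pseudogenes together had a median of 0.104 EPKM, and 84 of them (50.3%) were high. Of the same 167, 61 (36.5%) were low and 58 (34.7%) were listed at 0, against 32.4% and 19.1% of all genes.

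The 10 genes with the highest EPKM for their TPM, outside the 15 of highest EPKM and with 0.01 added to EPKM and expected value, were all processed pseudogenes. Without this addition the order differs, and VPS11-DT, a lncRNA at 17.4 times its expected value, lies above RPSAP15 at 17.3. RPSAP54, a copy of RPSA, had 0.751 EPKM at 6.21 TPM, against an expected value of 0.0217. RPL3P2 had 0.661 EPKM at 6.36 TPM, RPL10AP6 0.621 at 13.8 TPM and CHCHD2P6 0.407 at 5.13 TPM. Copies of RPSA recurred in this list, with RPSAP19 at 0.694, RPSAP47 at 0.774 and RPSAP15 at 0.527 EPKM, and the list was completed by RPL7AP30 at 0.281 and by ENSG00000228981 at 0.720 and ENSG00000230291 at 0.418. For 4 of the 10 (RPL10AP6, RPSAP19 and the pair without a gene name) at least 95% of the span is covered by other annotated genes on either strand. All 6 RPSA pseudogenes at or above 5 TPM were above 0, from 0.135 to 0.774 EPKM, beside 1.65 for RPSA itself.

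Copy and parent were not alike in general. For 150 processed pseudogenes whose name gives a parent gene that is also at or above 5 TPM, a pairing made after the values had been seen, the pseudogene had the higher EPKM in 38 pairs, the parent in 105, and 7 were equal. The copies were much less abundant, with a median TPM of 12.7 against 1189 for the parents. On the percentile among genes of like TPM, an order added after the data were seen, the pseudogene was higher in 84 pairs, the parent in 65, and 1 was equal. GPX1P1 (chromosome X from 13378735 to 13379340), a copy of the glutathione peroxidase gene GPX1, had 1.46 EPKM at 173 TPM and 0 in both other fractions. GPX1 itself was listed at 0 in the PABPC IP at 2519 TPM and had 0.190 EPKM in the Input. SNRPGP2, a copy of the spliceosomal Sm protein gene SNRPG, had 1.18 EPKM where SNRPG had 0.161. RPL41P1 had 0.625 EPKM where RPL41 was listed at 0. In contrast, both RPS27 pseudogenes were listed at 0 where RPS27 had 1.18. Among the non-coding genes as a whole, the 5 with the highest EPKM were GPX1P1, SNRPGP2, RPSAP47 and 2 processed pseudogenes without a gene name, ENSG00000227615 (0.847 EPKM) and ENSG00000250321 (0.802 EPKM).

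The protein-coding genes with the highest EPKM for their TPM, outside the 15 genes of highest EPKM and listed after the values had been seen, came from varied functions. TNNT1, the slow skeletal muscle troponin T, had 0.725 EPKM at 24.3 TPM, 14.3 times its expected value of 0.0507. HNRNPA1L2, an intronless relative of the splicing factor HNRNPA1, had 0.170 EPKM at 5.67 TPM. ST6GALNAC6, a sialyltransferase, had 0.711 EPKM at 78.2 TPM, and H4C2, a replication-dependent histone H4 gene, had 0.883 EPKM at 259 TPM. CNN2, the actin-binding protein calponin 2, had 0.626 EPKM at 89.0 TPM. GNA11, a G protein alpha subunit, had 0.691 EPKM at 98.5 TPM, and PSMC1, an ATPase of the proteasome base, had 0.339 at 23.6 TPM. These are single pooled values, and for HNRNPA1L2 and ST6GALNAC6 the whole span is covered by other annotated genes on either strand. CNN2 was at 0 in both other fractions. H4C2 had 0.0155 and TNNT1 0.385 in the Input, and both were at 0 with PABPN.

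At the other end, 19 of the 126 genes with at least 1000 TPM in the PABPC IP (15.1%) were listed at 0, where 19.1% of all genes and 11.9% of those in the highest TPM decile were. Among the protein-coding genes the most abundant of these was MT-CO1, a mitochondrially encoded subunit of cytochrome c oxidase, at 7230 TPM. It was followed by FTL, the ferritin light chain of iron storage, at 3896 TPM, RPL32 at 2633 TPM and GPX1 at 2519 TPM. FTL mRNA carries an iron-responsive element through which its translation is held back when iron is low, and GPX1 mRNA is read through a UGA codon as selenocysteine. HMGA1, a chromatin architectural protein, was listed at 0 at 1715 TPM, SRM, spermidine synthase, at 1684 TPM, and ATP6V1F, a subunit of the vacuolar proton pump, at 1540 TPM. EIF4EBP1, the repressor of cap-dependent initiation that binds eIF4E, was listed at 0 at 1339 TPM, and EEF1B2, a subunit of the exchange factor of elongation factor 1, at 1330 TPM. The 15 most abundant such genes were completed by RPS23, MT-ATP6, JTB, MT-ND4, RPL41 and UQCR10, the last a subunit of respiratory complex III at 1096 TPM.

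None of these 15 genes was at 0 in the Input. The Input values ran from 0.00466 EPKM for RPL32 to 0.435 for UQCR10, with 0.394 for EEF1B2, 0.328 for ATP6V1F, 0.286 for EIF4EBP1 and 0.0201 for FTL. In the PABPN IP, 8 of the 15 were listed at 0, and the others had up to 0.165 (RPS23). The shares of all genes at 0 in the Input and the PABPN IP were not counted. For 4 of the 15 (RPL32, GPX1, ATP6V1F and JTB) at least 95% of the span is covered by other annotated genes on either strand. The part of this in the listing at 0 was not tested.

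The mitochondrially encoded mRNAs had the lowest editing of the 40 families for their abundance. They are translated inside mitochondria by mitochondrial ribosomes, which do not hold RPS2. All 13 were low for their TPM, and 11 were listed at 0, against 19.1% of all genes. Only MT-CO2 with 0.0821 EPKM at 4355 TPM and MT-CO3 with 0.0650 at 5535 TPM were above 0. Their expected value, set by the 200 genes of highest TPM, was 0.206 to 0.211. The median percentile was 8 (interval over members 7 to 10.5), and 11 of 13 members had the same EPKM of 0, so these percentiles hold no order among them. The median TPM of the 13 was 904, where the genes of like TPM had a median EPKM of 0.157.

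The same mRNAs were not all at 0 in the other fractions. In the Input, 6 of 13 were listed at 0 and the highest were MT-ATP8 at 0.273 EPKM and MT-ATP6 at 0.182. In the PABPN IP, 9 of 13 were listed at 0, and MT-ND2 had 0.816, MT-ND3 0.154 and MT-ND1 0.0810. The medians of the 13 were 0.00390 EPKM in the Input and 0 in the PABPN IP, where all genes had 0.0251 and 0.0325. MT-CO2 and MT-CO3, the pair above 0 in the PABPC IP, were at 0 in both other fractions. No mRNA of the 13 was above 0 in all 3 fractions.

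**Figure D3:**
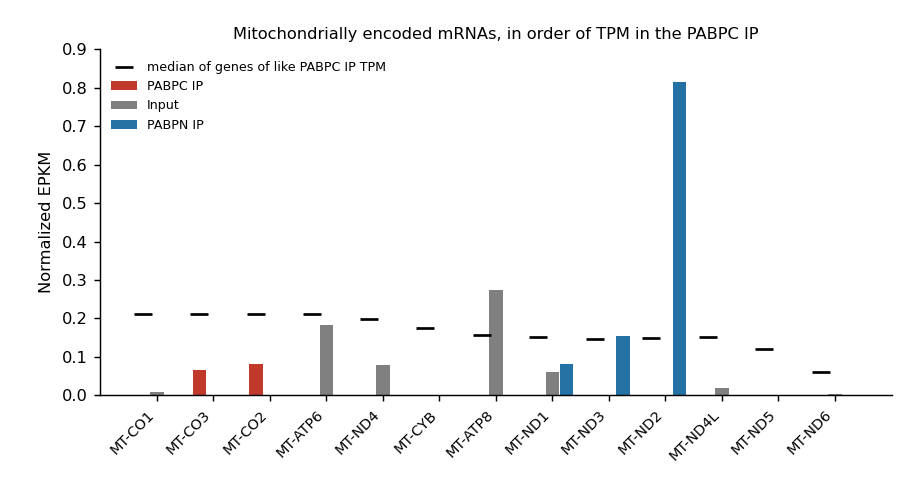
Normalized EPKM of the 13 mitochondrially encoded mRNAs in the PABPC IP (red), Input (grey) and PABPN IP (blue), ordered by PABPC IP TPM, with the expected value for their PABPC IP TPM as black dashes. Only MT-CO3 and MT-CO2 have a red bar, and both bars lie below their dash.

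Proteins of the mitochondrial ribosome and the respiratory chain that are encoded in the nucleus, and translated in the cytoplasm, lay higher. The 78 mitochondrial ribosomal proteins had a median of 0.0666 EPKM, and a median percentile of 35.8 (interval over members 24 to 59.5). Of these, 14.1% were high for their TPM, 42.3% were low and 19.2% were at 0, where 19.1%, 32.4% and 19.1% of all genes were. They ran from MRPL14 at 1.45 to 15 members listed at 0, of which MRPS26 was the most abundant. The 78 nuclear-encoded respiratory chain subunits had a median of 0.110 EPKM and a median percentile of 49.5, with 8.97% high, 25.6% low and 7 members at 0, and with EPKM divided by TPM the percentile was 31.1. They ran from NDUFA7 at 1.04 to UQCR10, the most abundant of those at 0.

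Most families lay near the middle of genes of like abundance. The median percentile was between 40 and 60 for 23 of the 40 families, above 60 for 9 and below 40 for 8. The interval over members excluded 50 for 5 families, which were the ribosomal proteins of each subunit, their pseudogenes, the ubiquitin-specific proteases and the mitochondrially encoded mRNAs. These intervals take genes as units, which are not replicates, and were not adjusted for the 40 families, so some can exclude 50 by chance. Solute carriers, the membrane transporters, had a median percentile of 53 over 177 genes, and numbered zinc finger proteins 50.5 over the 233 of 424 that reached 5 TPM. The 39 ubiquitin-specific proteases, which remove ubiquitin from proteins, had a median percentile of 58 (53 to 76.5) with 28.2% high and 20.5% low, where 19.1% and 32.4% of all genes were, from 0.355 EPKM for USP22 to 0 for USP1, USP7 and USP16. Their median coding length was 2742 bases, and protein-coding genes in the quintile of longest coding sequences (from 2319 bases) had a median percentile of 59. The part of length was not tested.

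**Figure D4:**
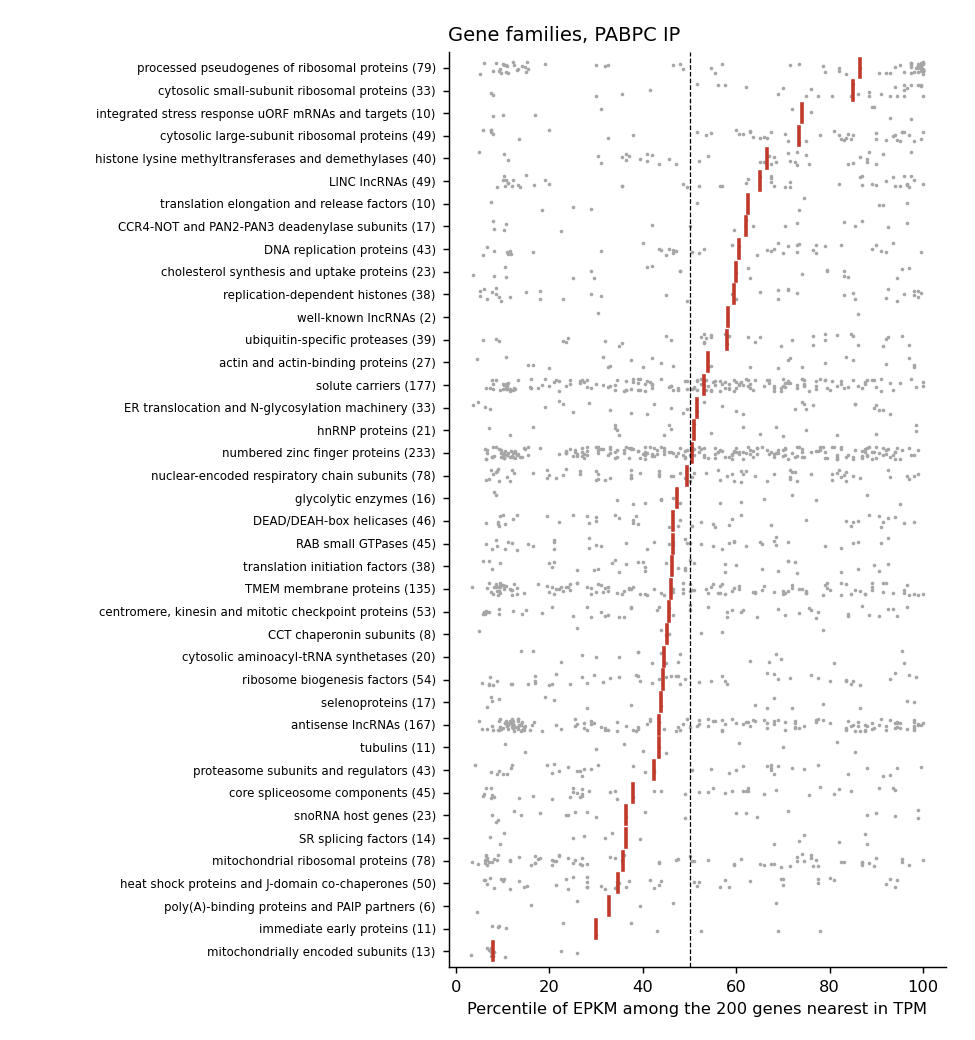
Percentile of each member's EPKM among the 200 genes nearest in PABPC IP TPM, for 40 gene families with the number of members in brackets; grey points are genes, red bars are family medians and the dashed line is 50. Medians run from 86.5 for ribosomal protein pseudogenes to 8 for mitochondrially encoded mRNAs, and the members of most families span the scale.

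Within the translation machinery, elongation factors were divided. EIF5A, which relieves stalled ribosomes, had 0.781 EPKM at 3057 TPM. EEF2, the translocase, had 0.472 at 4832 TPM, and EEF1A1, which delivers aminoacyl-tRNA, had 0.464 at 6770 TPM. Its neuronal and muscle form EEF1A2 had 0.142 EPKM at 35.5 TPM. The release factor GSPT1 (eRF3a) had 0.266 and its partner ETF1 (eRF1) 0.0708. The subunits that recharge EEF1A lay low, with EEF1G at 0.0795 EPKM at 4416 TPM, EEF1D at 0.0161 and EEF1B2 at 0, and EIF5A2 had 0.0407. Of these 10 genes, 5 were high for their TPM and 3 were low, where 19.1% and 32.4% of all genes were. The median percentile of 62.5 (18.5 to 91.5) was 23.2 with EPKM divided by TPM. The 38 initiation factors had a median percentile of 46.3 and ran from EIF4B at 0.376 EPKM to 4 members at 0, among them EIF4E, the cap-binding protein, and the helicase EIF4A2. The 20 cytosolic aminoacyl-tRNA synthetases had a median percentile of 44.5, from IARS1 at 0.272 EPKM to CARS1 at 0.

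The mRNAs of the poly(A)-binding proteins and their PAIP partners had a median percentile of 32.8 with a wide interval over 6 members (4.5 to 68.5), and 0 were high for their TPM and 3 were low, where 19.1% and 32.4% of all genes were. PABPC1, the protein precipitated here, had 0.406 EPKM at 1305 TPM, 1.97 times its expected value. PABPC4 had 0.0878, PAIP2, which displaces PABPC from poly(A), 0.106, PAIP2B 0.010 and PAIP1, which bridges PABPC and initiation factors, 0.0122. PABPN1, the nuclear poly(A)-binding protein, had 0 EPKM at 272 TPM, beside 0.235 in the Input and 0.237 with PABPN. Its exons overlap a readthrough gene, BCL2L2-PABPN1, which had 0.00798 EPKM. The 17 subunits and partners of the CCR4-NOT and PAN2-PAN3 deadenylases had a median percentile of 62 (22.5 to 83), from CNOT11 at 0.265 EPKM to 4 members at 0, of which CNOT3 was the most abundant.

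Genes of the integrated stress response, many of whose mRNAs hold short upstream open reading frames, had a median percentile of 74 with a wide interval over their 10 members (10 to 93). With a TPM limit of 20 it was 51.5 over 6 genes. ASNS, asparagine synthetase, had 0.204 EPKM at 49.3 TPM, and the pseudokinase TRIB3 had 0.149. The cystine transporter SLC7A11 had 0.0837 at 10.8 TPM and the transcription factor DDIT3 0.0831 at 10.4 TPM. SESN2 had 0.132 and CHAC1, which degrades glutathione, 0.0628. ATF4, the transcription factor of this response, had 0.109 EPKM at 1879 TPM and lay at percentile 31. PPP1R15B had 0.00814, and PPP1R15A and ATF5 were listed at 0. In all, 5 of the 10 were high for their TPM and 3 were low, where 19.1% and 32.4% of all genes were.

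Chaperones and immediate early mRNAs had median percentiles below 50 with intervals that include it. The 50 heat shock proteins and J-domain co-chaperones had a median percentile of 34.8 (28 to 51) and ran from HSP90AB1 at 0.388 EPKM to HSPB1, the most abundant of 11 at 0. Of these 50, 6 (12%) were high, where 19.1% of all genes were. Another 36% were low and 22% were at 0, near the 32.4% and 19.1% of all genes. The 8 subunits of the CCT chaperonin, which folds actin and tubulin, had a median percentile of 45.3 (5 to 78.5) and were between the 2 limits except for CCT5, which was listed at 0. The other 7 ran from 0.0630 for CCT6A through 0.0960 for CCT2, 0.115 for CCT7, 0.126 for TCP1, 0.134 for CCT8 and 0.153 for CCT4 to 0.237 for CCT3. Of 11 immediate early genes, 0 were high and 6 (54.5%) were low, where 19.1% and 32.4% of all genes were. Their median percentile was 30 (9 to 69). JUND had the highest EPKM of these, 0.155, and ATF3, KLF10, JUNB and IER3 were listed at 0.

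Replication-dependent histone mRNAs end in a stem-loop and lack a poly(A) tail, and 38 of 57 reached 5 TPM in the PABPC IP. Their median was 0.0963 EPKM with a median percentile of 59.5 (18 to 73.0), and 28.9% were high, 39.5% were low and 23.7% were at 0, where 19.1%, 32.4% and 19.1% of all genes were. With EPKM divided by TPM the median percentile was 31.4. They ran from H4C2 at 0.883 to H2AC12, the most abundant of those at 0. Histone genes of one type are near-identical in coding sequence, so the assignment of reads among them is uncertain. The TPM of H4C2 was 259 with PABPC and 2610 in the Input. Other groups of common cellular functions had similar breadth. The 43 DNA replication proteins had a median percentile of 60.5, from CDT1 at 0.275 EPKM to PCNA, the most abundant of 6 at 0. The 16 glycolytic enzymes had a median percentile of 47.3, or 27.8 with EPKM divided by TPM, from GAPDH at 0.526 EPKM to ALDOA and HK2 at 0. The 45 core spliceosome components had a median percentile of 38, from LSM7 at 0.243 EPKM to SF3B5, the most abundant of 7 at 0.

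Long non-coding RNAs were more often high and more often low for their TPM than mRNAs, but the sets differed in abundance. Of the 510 lncRNAs, 45.1% were low and 26.5% were high for their TPM, against 31.3% and 18.0% of the protein-coding genes. The median percentile was 41.8 for lncRNAs and 50.5 for protein-coding genes. Their median TPM was 9.74 and 28.5. Over all genes, both shares were larger with a TPM limit of 1 (24.2% high, 35.6% low) than with a limit of 20 (15.4% and 29.9%). The part of abundance in the difference between lncRNAs and mRNAs was not tested. The 49 LINC lncRNAs that reached 5 TPM, of 297 listed, had a median of 0.0361 EPKM and a median percentile of 65 (48.5 to 71.5), with 34.7% high and 30.6% low, from 0.233 for LINC01976 to 13 at 0. With a TPM limit of 1 the median percentile was 33.5 over 147 LINC lncRNAs, on the other side of the middle. The 167 antisense lncRNAs that did so, of 589, had a median percentile of 43.5, with 24.6% high and 44.3% low, from 0.325 for PITPNA-AS1 to 57 at 0. The 23 snoRNA host genes, whose introns hold snoRNAs, had a median percentile of 36.5, from SNHG29 at 0.454 EPKM to SNHG9, SNHG25 and SNHG30 at 0. Of 5 well-known lncRNAs in the table, 2 reached 5 TPM, and these were MALAT1, which stays in nuclear speckles, with 0.00451 EPKM and OIP5-AS1 with 0.150. RN7SL1, the RNA of the signal recognition particle, which binds ribosomes that translate secreted proteins, is not among the 510 lncRNAs, whose highest value was 0.454 EPKM. It had 0.672 EPKM at 5547 TPM, where the 200 genes of highest TPM had a median of 0.206. It was picked out after its value was seen.

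Longer transcripts were less often listed at 0, and their median lay higher for their TPM. Lengths and base composition were taken from GENCODE for the protein-coding genes, sorted into quintiles. The share listed at 0 was 24.2% in the quintile with the shortest transcripts (median 1245 bases) and 9.90% in the quintile with the longest (median 7198 bases). The median percentile was 41 in the former and 56 in the latter. The upper end went the other way, since 90% of genes lay at or below percentile 91.6 in the former and 87.5 in the latter. By coding length, the median percentile was 45.3 in the shortest quintile and 59 in the longest. By the C content of the coding sequence, where C is the base that APOBEC1 edits, it was 48 in the lowest quintile and 57.5 in the highest. By the length of the 5′ UTR it was 49.3 in the shortest quintile and 52 in the longest. The median EPKM itself went the other way with transcript length, from 0.0585 in the shortest quintile to 0.0435 in the longest. The median TPM was 70.2 in the former and 16.4 in the latter. The median coding length of ribosomal proteins, 438 bases for the small subunit and 468 for the large, lay within the shortest quintile, and single members such as RPSA were longer.

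**Figure D5:**
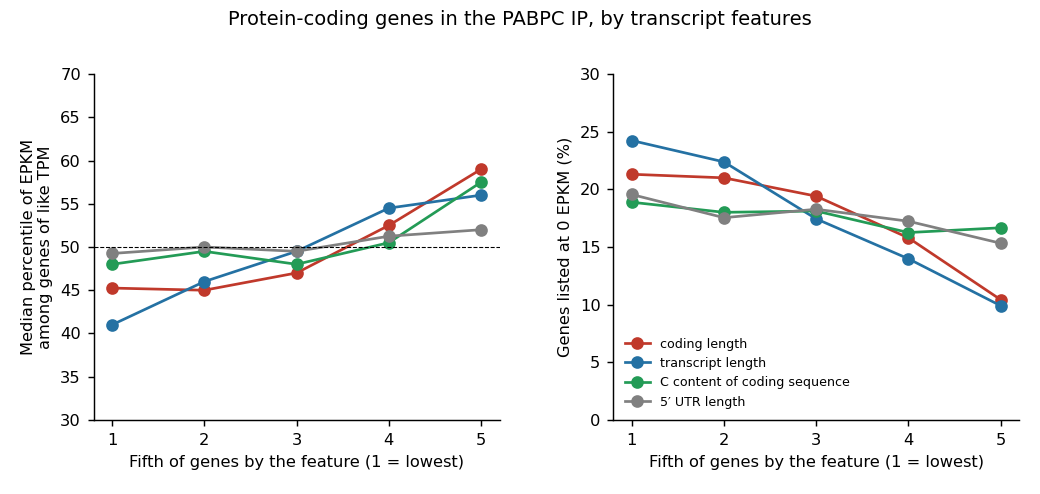
Median percentile of EPKM among genes of like TPM (left) and share of genes listed at 0 EPKM in percent (right) over quintiles of protein-coding genes by 4 transcript features. By transcript length the percentile runs from 41 to 56 and the share at 0 from 24.2% to 9.90%, and the 5′ UTR line is nearly level on the left.

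The share of genes at 0 was higher among genes that overlap others. A set of 1262 genes are readthrough genes or have at least 95% of their span covered by other genes on either strand. Of these, 26.1% were listed at 0, and of the other 9316 genes 18.2% were. The 99th percentile was 0.680 EPKM among the former and 0.411 among the latter. Where a readthrough gene was listed beside its partner the values were unequal. RPS10-NUDT3 had 0.0633 EPKM beside 1.07 for RPS10, and RNASEK-C17orf49 was listed at 0 beside 1.08 for RNASEK. The part of gene overlap in these values was not tested.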

How the data were processed

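The series holds 17 samples, of which 5 are from the PABPC IP (3 RPS2-STAMP, 2 Control-STAMP). Per the labels, reads were aligned by the authors with STAR to hg38 and counted with featureCounts 2.0.2. The normalized EPKM as deposited is an editing signal from which the authors subtracted the control, with 1 value per gene and fraction and none below 0. How replicates were combined, how differences below 0 were handled and which fraction's control was subtracted are not given in the sources used here. The deposited TPM is the authors' mean per fraction, with exonic and intronic TPM added. Depth per sample is unknown.

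Expected values were medians of the 200 genes nearest in rank (100 on each side, except near the ends of the range). At the ends, genes shared a block of the 200 genes of highest or of lowest TPM. The procedure was tested on simulated data. Genes at 0 count as low. Intervals of family medians are 95% order-statistic intervals over genes, which leave out replicate error. All genes and 40 families were described, with no test, since limma, a replicate block and leave-one-out fits need values per sample. Members and lists were chosen with earlier results of these data known. The genes named were the 15 of highest EPKM, the 10 highest over expected (0.01 added to both), the 15 most abundant protein-coding genes at 0, the 5 non-coding genes of highest EPKM, family extremes, all members of families of up to 10, and RPS2, PABPC1, PABPN1, ACTB and GAPDH. Some of these genes are not reported here. Annotation came from GENCODE (10567 of 10578 genes found by identifier) and start windows from RefSeq (8228 genes matched by symbol). Software was Python 3.11.15 with SciPy 1.17.1, pandas 2.3.3, NumPy 2.4.6 and, for plots, matplotlib 3.10.9.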

Additional observations from a re-analysis of the deposited data

Results flagged for a closer look

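Genes without an average TPM stand outside the comparisons above. Of these 1964 genes, 546 (27.8%) had a normalized EPKM above 0 in the PABPC IP, 17 of them at or above 0.5. The highest was MIR3605, a microRNA gene that lies wholly within another annotated gene, with 0.857 EPKM, and it was listed at 0 in the Input.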

How the results depend on the processing

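No paired analysis was possible because the deposited values are pooled over replicates. The alternatives that need values per sample (leaving out replicates, a replicate block) were not run for the same reason. A pseudocount of 0.1 was not run either. The share of genes above 0 was 75.5% with a TPM limit of 1, 84.4% with a limit of 20, 75.3% with a threshold of 0.01 EPKM and 82.4% over protein-coding genes. The median EPKM was 0.0298 with the limit of 1, 0.0762 with the limit of 20, 0.0496 over protein-coding genes and 0.0634 over genes above 0, and the mean was 0.0714. With the limits of 1 and 20, 3408 of 14097 (24.2%) and 948 of 6136 genes (15.4%) were high for their TPM, and 1832 (29.9%) were low with the limit of 20. At least 4-fold above were 337. Other neighbour settings kept both counts within 1.5 times.

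Over the 40 families, the median percentile stayed inside its interval under every setting for 32. Families with wide intervals could hardly leave them, so this count says little about stability. Elongation and release factors, with an interval of 18.5 to 91.5, stayed inside it while their median percentile went from 62.5 to 23.2. Neighbours matched on both TPM and exonic length need not be the genes nearest in TPM, so they can be less alike in abundance. The parts of length and of abundance in this setting were not tested. With these neighbours the median percentile was 95.5 for small-subunit and 92 for large-subunit ribosomal proteins. It was 12.3 for mitochondrially encoded mRNAs, which had 6.5 with their own family left out, an alternative chosen after the data were seen. With EPKM divided by TPM it went below the middle for both ribosomal subunits, to 27.4 and 25.1, and likewise for elongation and release factors (23.2), histones (31.4), actin and its binding proteins (34.2), hnRNP proteins (35.4) and cholesterol synthesis (45.6), among others. On this scale respiratory chain subunits had 31.1, glycolytic enzymes 27.8, numbered zinc finger proteins 62.6, antisense lncRNAs 57.9 and LINC lncRNAs 77.9. With the limit of 1, LINC lncRNAs had 33.5 over 147 genes. The number of reads and edits behind each value is unknown, so genes with few edits cannot be told from genes without editing.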
